A study of Mus musculus with 4 samples.

Results

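The proteasome is the protease that destroys proteins tagged with ubiquitin. Its core particle is a barrel of alpha and beta rings whose inner beta subunits cut the substrate, and its cap (the regulatory particle) holds ATPases that unfold the substrate and non-ATPase subunits that bind and remove ubiquitin. Dedicated chaperones assemble both parts, and the transcription factor encoded by Nfe2l1 is known to raise the transcription of subunit genes when proteasome activity falls. In skeletal muscle cells this machine turns over MyoD and cyclin E, among many other proteins, and the study asked how PW1, the product of Peg3, sets the stability of MyoD.

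Members were the genes whose symbol starts with Psma, Psmb, Psmc, Psmd, Psme, Psmf or Psmg, without the immunoproteasome subunits Psmb8 and Psmb9, plus Adrm1, Pomp, Uchl5, Usp14 and Nfe2l1. They were taken from probe sets annotated with exactly 1 gene symbol, and a gene with several probe sets was represented by the brightest. The rule matched 58 probe sets of 52 genes, of 19938 genes in all. Adrm1, a ubiquitin receptor of the cap, had no row with its symbol alone. Psmc3ip, a recombination factor, and Psme3ip1, a partner of Psme3, entered by the spelling of their symbols and are kept apart, which leaves 50 proteasome genes: 17 of the core, 19 of the cap, 5 activators and inhibitors, 8 assembly chaperones and Nfe2l1.

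RNA came from proliferating mesoangioblasts (AdmMABs), vessel-associated progenitors from the tibialis anterior of adult male C57/BL6 mice, kept as 1 polyclonal population and transduced with a lentiviral short hairpin RNA. The 2 shCtrl arrays carry a control hairpin that matches no mouse sequence and the 2 shPW1 arrays carry 1 hairpin against PW1, driven by an H1 promoter. Each array measured a separate RNA extraction, so p-values cover the spread between extractions alone, possibly a technical one. The methods place the hairpin against PW1 and a purchased control hairpin in different vectors without saying which control the arrays used, so vector and loss of PW1 cannot be told apart. Values are the authors' RMA log2 expression. A probe set was called at a Benjamini-Hochberg adjusted p under 0.05 from limma over 21789 probe sets.

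Peg3 was at 8.67 and 8.70 in shCtrl and at 6.22 and 6.47 in shPW1, a log2 fold change of -2.34 (95% confidence interval -2.60 to -2.08, adjusted p = 0.00428 by limma), so the targeted gene followed the labels. Of the markers listed for the cell type, Pdgfrb, Cd44 and Itgb1 had means of 9.09 to 11.5 in shCtrl, whereas Alpl and Eng were dim, at 5.85 and 5.32. Beside 4.93% of all probe sets called higher and 4.17% lower, of 9 measured markers of the list Cd44 was called higher and Pdgfrb, Pdgfra and Cspg4 lower, and of 5 myogenic markers Myod1, Des and Cdh15 were called lower. Myod1 was at 9.08 and 9.09 in shCtrl and at 7.46 and 7.27 in shPW1, a log2 fold change of -1.72 (adjusted p = 0.00503 by limma). By quantitative PCR the study found MyoD transcripts with or without the PW1 hairpin, rising in differentiation, and did not describe a fall like this one. It describes a loss of MyoD protein, which it ascribes to degradation through cyclin E and the proteasome. The arrays measured RNA alone. In bulk RNA, fewer cells of a type and less RNA per cell cannot be told apart. The 5 endothelial and 5 leukocyte markers measured had shCtrl means between 3.67 and 6.02, and none was called. The part of these genes in the proteasome values was not tested. Probe sets with a mean log2 level of 9 or more, where most proteasome genes lie, leaned to the shPW1 side as a whole: 62.2% of them had a fitted change above 0, against 47.6% of all probe sets tested. Its part in the proteasome values was not tested.

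Most proteasome genes had slightly higher values in shPW1, by amounts that, except for Psmg4, did not pass the test. The median log2 fold change of the 50 genes was 0.10, against -0.0095 over all probe sets tested and 0.049 over the 3493 probe sets with a mean of 9 or more. Psmg4 alone was called higher and no gene was called lower by limma, while 4.93% of all probe sets were called higher and 4.17% lower. The share of proteasome genes called higher was thus 2.0% in this fit; in 3 other settings, given below, it lay above that of all probe sets, and the difference in shares was not tested. At an unadjusted p under 0.05, 15 genes were higher and 1 was lower, against 14.1% and 13.6% of all probe sets. Of the 3493 probe sets with a mean of 9 or more, 919 were higher and 432 lower at that p. Of the 42 proteasome genes at that level, 14 were higher and 1 was lower. By adjusted p, 328 of the 3493 were called higher and 169 lower, against none of the 42. The smallest change called anywhere was 0.28 on the log2 scale, and all but 2 of the 50 genes changed by less than that.

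Both shPW1 arrays lay above both shCtrl arrays for 30 of the 50 genes and below them for 2, and the groups overlapped for 18. Over all probe sets the arrays separated upwards in 27.5% and downwards in 28.0%, and with dim probe sets left out in 37.2% and 31.7%. Among probe sets with a mean of 9 or more the figures were 50.6% and 27.7%, and 28 of the 42 proteasome genes at that level (66.7%) separated upwards. The medians of the genes' deviations from the shCtrl mean were 0.003 and -0.003 in the shCtrl arrays and 0.092 and 0.093 in the shPW1 arrays.

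**Figure D1:**
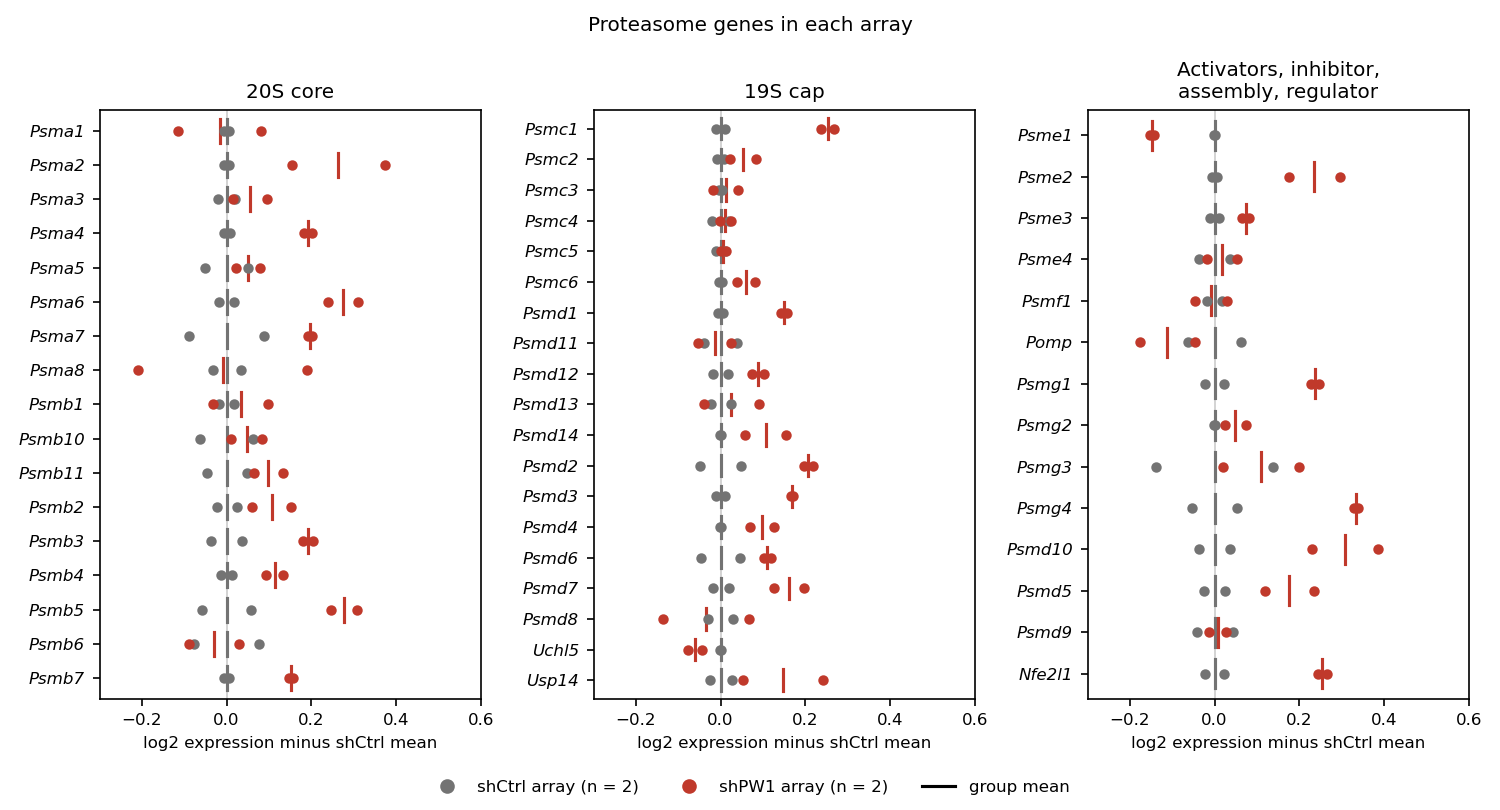
Log2 expression minus the mean of the shCtrl arrays (horizontal axis) for each of the 50 proteasome genes (vertical axis), with 1 point per array (2 shCtrl in grey, 2 shPW1 in red) and a short line at each group mean. Both red points lie to the right of both grey points for 30 genes and to the left for Psme1 and Uchl5.

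Of the 17 core particle genes, 14 had a fitted change above 0, 10 had both shPW1 arrays above both shCtrl arrays and none was called. The share separating upwards was 58.8%. Of all probe sets with a mean of 9 or more, 50.6% separated upwards and 62.2% had a change above 0. Psma8, Psmb11, Psmb10 and Psmb1 had means below 9, so the sets differ in level. With Psma8, Psmb10 and Psmb11 left out, 9 of 14 core genes separated upwards (64.3%). The difference in shares was not tested. Over all 17 core genes the median was 0.11 and the values ran from -0.029 to 0.28.

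Among the alpha subunits, which form the outer rings and the gate, Psma6 was at 10.21 and 10.17 in shCtrl and at 10.43 and 10.50 in shPW1. Both shPW1 values were higher, with a log2 fold change of 0.27 (95% confidence interval 0.11 to 0.44, adjusted p = 0.065 by limma). Psma2 was at 9.64 and 9.65 in shCtrl and at 9.80 and 10.02 in shPW1, with the wider gap inside the shPW1 pair and a log2 fold change of 0.26 (adjusted p = 0.151 by limma). Without shPW1 replicate 2 the change of Psma2 was 0.15. Psma7 and Psma4 differed by 0.20 and 0.19, also with no overlap between the groups, and Psma7 by 0.11 without shCtrl replicate 1. By contrast Psma1, Psma3 and Psma5 overlapped, at -0.017, 0.055 and 0.051. The other probe set of Psma5 gave 0.22 with no overlap, so the value of this gene depends on the probe set. Psma8, the testis form of Psma7, was dim, with means of 4.69 in shCtrl and 4.68 in shPW1.

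The values of the catalytic beta subunits were unequal. Psmb5, which carries the chymotrypsin-like site that MG132 blocks, was at 10.04 and 9.93 in shCtrl and at 10.30 and 10.23 in shPW1. Both shPW1 values were higher, with a log2 fold change of 0.28 (95% confidence interval 0.093 to 0.46, adjusted p = 0.084 by limma). Psmb7, with the trypsin-like site, was at 11.05 and 11.06 in shCtrl and at 11.21 and 11.20 in shPW1, a change of 0.15 (95% confidence interval 0.0061 to 0.30, adjusted p = 0.169 by limma). Psmb6, with the caspase-like site, was at 10.96 and 10.81 in shCtrl and at 10.80 and 10.92 in shPW1. The groups overlapped, and its change of -0.029 had a 95% confidence interval of -0.25 to 0.19. That interval overlaps those of Psmb5 and Psmb7, and the difference between the subunits was not tested.

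The structural beta subunits Psmb3, Psmb4 and Psmb2 lay higher without overlap, by 0.19, 0.11 and 0.11 (Psmb2 by 0.061 without shPW1 replicate 2), and Psmb1 overlapped at 0.033. Psmb10, the catalytic subunit of the immunoproteasome that replaces Psmb7, was at 7.36 and 7.24 in shCtrl and at 7.38 and 7.31 in shPW1, a change of 0.047 with overlapping arrays. Psmb8 and Psmb9, the immune forms of Psmb5 and Psmb6, had changes of 0.095 and -0.081, and neither was called. Psmb11, the thymus form, was dim, at 4.96 in shCtrl.

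In the cap, 16 of 19 genes had a fitted change above 0, 12 had both shPW1 arrays above both shCtrl arrays, 1 had both below, and none was called. All lay at a mean of 9 or more, where 50.6% of all probe sets separated upwards and 27.7% downwards, against 63.2% and 5.26% of the cap. The median was 0.089. The ATPases, which form the ring that threads the substrate into the core, stood close to 0 apart from 1 gene. Psmc1 was at 9.93 and 9.95 in shCtrl and at 10.21 and 10.18 in shPW1, a log2 fold change of 0.25 (95% confidence interval 0.10 to 0.40, adjusted p = 0.065 by limma), and its dimmer probe set gave 0.15. Psmc2, Psmc3, Psmc4, Psmc5 and Psmc6 lay between 0.0061 and 0.060. The 95% confidence interval of Psmc5 ran from -0.14 to 0.15 and that of Psmc6, the upper end of this group, from -0.091 to 0.21.

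Of the 11 non-ATPase subunits, 8 lay higher without overlap (72.7%, beside the same 50.6%). Psmd2, a scaffold of the cap base like Psmd1, was at 11.51 and 11.41 in shCtrl and at 11.66 and 11.68 in shPW1, a change of 0.21 (adjusted p = 0.127 by limma), and Psmd1 changed by 0.15. The lid subunits Psmd3, Psmd7, Psmd6 and Psmd12 had changes of 0.17, 0.16, 0.11 and 0.089, and the ubiquitin receptor Psmd4 one of 0.098. Psmd6 changed by 0.065 without shCtrl replicate 1. Psmd13, Psmd11 and Psmd8 overlapped, at 0.025, -0.014 and -0.034.

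None of the deubiquitinases of the cap was called. Psmd14, the metalloprotease of the lid that removes ubiquitin chains before the substrate enters the core, was at 11.04 in both shCtrl arrays and at 11.20 and 11.10 in shPW1, a change of 0.11 (adjusted p = 0.360 by limma) that was 0.058 without shPW1 replicate 1. Usp14, which trims chains and can slow degradation, was at 9.96 and 9.91 in shCtrl and at 9.98 and 10.17 in shPW1. Its change of 0.15 (adjusted p = 0.342 by limma) was 0.053 without shPW1 replicate 2 and 0.24 without shPW1 replicate 1. Uchl5, which binds the cap through Adrm1, was at 9.75 and 9.76 in shCtrl and at 9.68 and 9.71 in shPW1. Both shPW1 values were lower, with a change of -0.061 (95% confidence interval -0.21 to 0.088, adjusted p = 0.558 by limma).

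**Figure D2:**
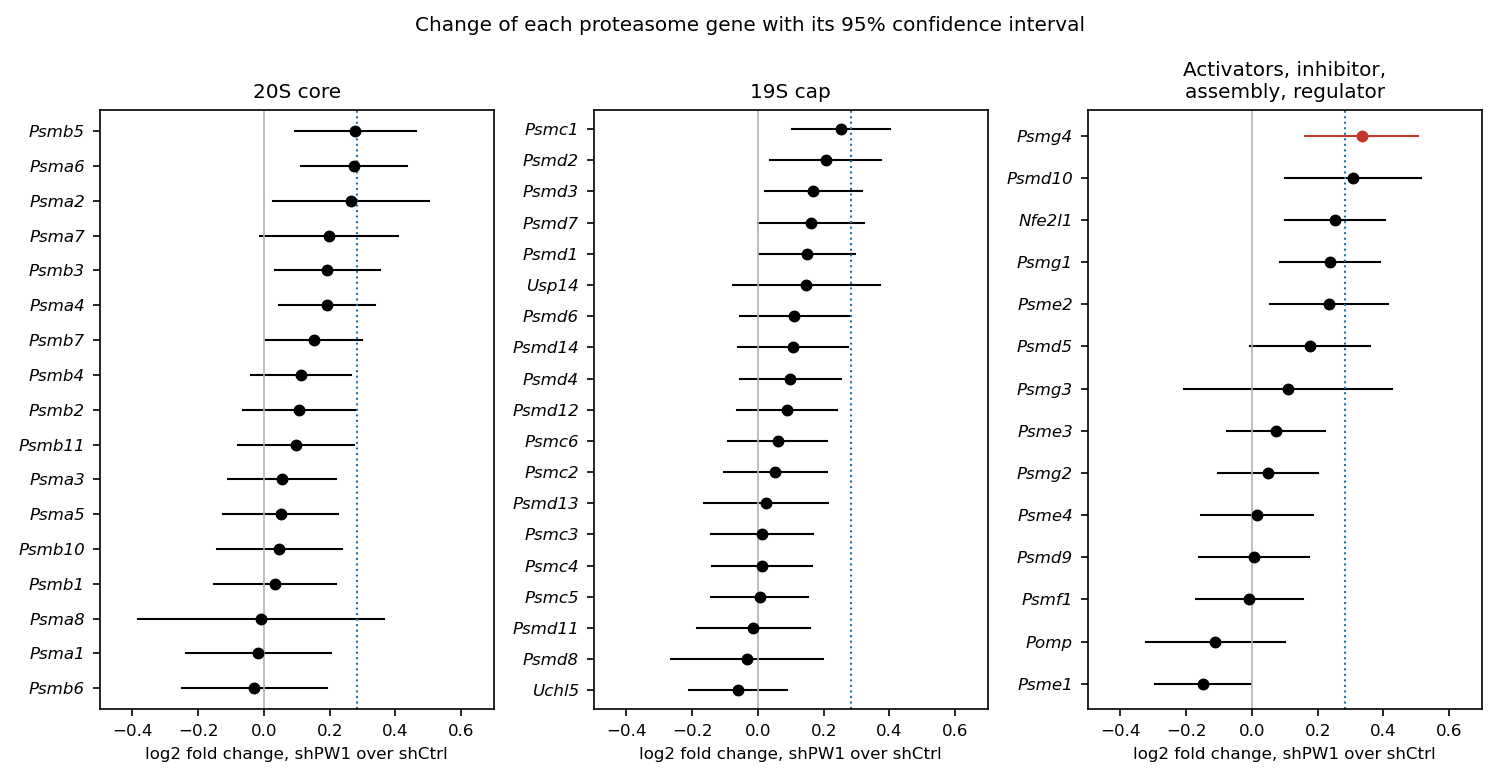
Log2 fold change of shPW1 over shCtrl (horizontal axis) with its 95% confidence interval from limma for each proteasome gene (vertical axis, ordered within each panel). The called gene, Psmg4, is red, and the dotted line marks 0.28, the smallest change called among all probe sets; all genes but Psmg4 and Psmd10 lie to its left.

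Among the alternative activators, the partners in 1 ring separated in opposite directions. Psme1 and Psme2 encode the alpha and beta chains of the PA28 ring, which opens the core without ubiquitin and is induced by interferon-gamma. Psme1 was at 9.50 in both shCtrl arrays and at 9.36 and 9.35 in shPW1, a log2 fold change of -0.15 (95% confidence interval -0.29 to -0.0015, adjusted p = 0.178 by limma). Psme2 was at 9.50 and 9.49 in shCtrl and at 9.67 and 9.79 in shPW1, a log2 fold change of 0.24 (95% confidence interval 0.056 to 0.41, adjusted p = 0.111 by limma). Neither was called, and the difference between the chains was not tested. A second probe set that holds Psme2 is shared with Psme2b and was left out, and close copies of this kind can share signal. Psme3, the nuclear PA28 gamma chain, changed by 0.073 without overlap, whereas Psme4, the PA200 activator, and Psmf1, an inhibitor of the core, overlapped at 0.016 and -0.0078.

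The assembly chaperones held the called gene. Psmg4, a chaperone of the alpha ring, was at 7.29 and 7.18 in shCtrl and at 7.57 in both shPW1 arrays. Its log2 fold change of 0.33 (95% confidence interval 0.16 to 0.51, a 1.26-fold rise) had an adjusted p = 0.0495 by limma, close to the threshold. Testing every row ended the call (adjusted p = 0.136), as did the replicate block (0.105), and over the alternatives the adjusted p ran from 0.00602 to 0.244. Without shCtrl replicate 1 it was 0.178, without shCtrl replicate 2 it was 0.244, without shPW1 replicate 1 it was 0.161 and without shPW1 replicate 2 it was 0.174, while the change itself lay between 0.28 and 0.39.

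Psmg1, which pairs with Psmg2 to start the alpha ring, was at 9.24 and 9.19 in shCtrl and at 9.44 and 9.47 in shPW1, a change of 0.24 (95% confidence interval 0.085 to 0.39, adjusted p = 0.078 by limma). Its partner Psmg2 changed by 0.049 and Psmg3, the partner of Psmg4, by 0.11 with overlapping arrays. Pomp, the maturation factor that guides the beta ring, was at 11.17 and 11.29 in shCtrl and at 11.05 and 11.18 in shPW1. The groups overlapped and its change of -0.11 (95% confidence interval -0.32 to 0.10) had the opposite sign to those of Psmg1 and Psmg4. With any 1 array left out it lay between -0.18 and -0.047.

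Of the chaperones of the cap base, Psmd10, also known as gankyrin, was at 9.09 and 9.17 in shCtrl and at 9.52 and 9.36 in shPW1. With a log2 fold change of 0.31 (95% confidence interval 0.10 to 0.52, adjusted p = 0.086 by limma) it had the second largest change of the 50 genes after Psmg4. Psmd5 changed by 0.18 without overlap and Psmd9 by 0.0069 with overlap. The median of the 8 assembly chaperones was 0.14, against 0.11 for the core and 0.089 for the cap. With Psma8, Psmb10 and Psmb11 left out, the median of the other 14 core genes was 0.13. The differences between these groups were not tested.

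Nfe2l1 was at 9.60 and 9.56 in shCtrl and at 9.84 and 9.82 in shPW1. Its log2 fold change of 0.25 (95% confidence interval 0.10 to 0.41, adjusted p = 0.067 by limma) missed the threshold. Psmc3ip and Psme3ip1, which are no proteasome genes, changed by 0.091 and -0.012 with overlapping arrays.

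These values can be set against the level of each gene. The median change of all probe sets was -0.054 at a mean log2 level of 5 to 6, 0.051 at 8 to 9, 0.062 at 9 to 10 and 0.041 at 10 to 11, and 42 of the 50 proteasome genes had a mean of 9 or more. Subtracting each array's median, another way of centring, raised the median change of all probe sets from -0.0095 to 0.049 and that of the core from 0.11 to 0.16, of the cap from 0.089 to 0.15 and of the assembly chaperones from 0.14 to 0.20. With that centring 6 proteasome genes were called higher, and over all probe sets 1627 were higher and 759 lower (68.2% of calls higher) in place of 1075 and 908 (54.2%).

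The number of calls depended on the test. With dim probe sets left out, 12 of the 48 proteasome genes kept (25.0%) were called higher and none lower, against 17.7% and 14.1% of the 12689 probe sets then tested. Psma8 and Psmb11 were not among those kept. With a trended robust prior, 19 of the 50 (38.0%) were higher and 1, Psme1, was lower (2.0%), against 12.6% and 9.08% of all probe sets. The methods' analysis of variance at p under 0.05 and a fold change over 1.2 called Psma6 and Psmg4, against 6.35% of all probe sets called higher and 5.35% lower, and no gene after adjustment. With any 1 of the 4 arrays left out, no proteasome gene and no other probe set passed limma's adjusted threshold.

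**Figure D3:**
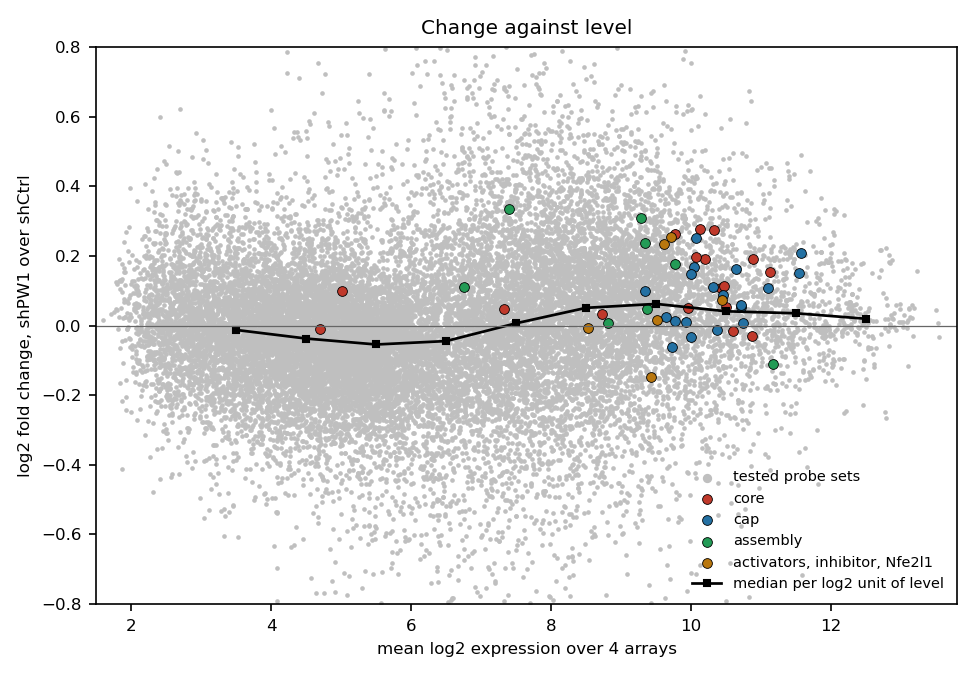
Log2 fold change of shPW1 over shCtrl (vertical axis) against the mean log2 expression over 4 arrays (horizontal axis) for the tested probe sets (grey; 293 with a change beyond 0.8 either way are not drawn) and the 50 proteasome genes (coloured by group). The black line joins the medians of all probe sets per log2 unit of level, and it passes from -0.054 at 5 to 6 to 0.062 at 9 to 10, below most of the coloured points.

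RefSeq promoters (GRCm38.p6, from 250 bases before to 50 bases after the transcription start) were at hand for 41 of the 50 genes. They were searched on both strands for TGACNNNGC, the core of the antioxidant response element that Nfe2l1 and Nfe2l2 bind with small Maf proteins, for CCAAT, and for the consensus motif that the study gives for PW1. The motif TGACNNNGC was present for 7 genes (17.1%), against 14% of all genes in the table and 12.4% of its 32851 promoters. The catalytic subunits Psmb5 and Psmb6 both held it, as did Psmd9 and Uchl5. These 4 stretches are shown because the match lies before the start site and within 50 bases of it. The match of Psme4 reached past the start site and is not shown. Matching bases are in capitals, and each stretch is read 5′ to 3′ along the gene's own strand. They were chosen after the values were seen.
Psmb5 (chr14:54617996-54618082, minus strand): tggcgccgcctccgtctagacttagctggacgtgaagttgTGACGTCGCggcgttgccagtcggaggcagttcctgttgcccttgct
Psmb6 (chr11:70525308-70525356, plus strand): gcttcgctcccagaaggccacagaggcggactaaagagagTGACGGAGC
Psmd9 (chr5:123228119-123228189, plus strand): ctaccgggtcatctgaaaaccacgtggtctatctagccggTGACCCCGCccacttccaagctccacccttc
Uchl5 (chr1:143777204-143777277, plus strand): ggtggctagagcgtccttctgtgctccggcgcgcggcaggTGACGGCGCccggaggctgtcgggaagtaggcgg

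The log2 fold changes of these genes were 0.28, -0.029, 0.0069 and -0.061, so the matching letters stood in promoters of genes on either side of 0. The 7 genes with TGACNNNGC had a median change of 0.016 and the 34 without it one of 0.11. The PW1 motif was present in none of the 41, against 0.555% of all genes and 0.484% of all promoters. At so low a share its absence from 41 genes says little. Psmg4 held none of the motifs searched.

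CCAAT was present for 14 of the 41 genes (34.1%), against 41.1% of all genes and 37.4% of all promoters. Of those 14 genes, 12 had both shPW1 arrays above both shCtrl arrays and their median change was 0.15. Of the 27 without it, 12 did and their median was 0.051. Over all probe sets 27.5% separated in this way, and 50.6% of those with a mean of 9 or more. These values are a description of short letters that occur in many promoters, and they were not tested. Shown are matches at most 54 bases before a start site, for the 4 genes with the largest changes among those that had one, apart from Nfe2l1 (0.25), which has 5 promoters in the table. The match of Psmc1 (0.25) lay 175 bases before the start. They were chosen after the values were seen and are printed with CCAAT or its reverse complement ATTGG in capitals, 1 match for each stretch.
Psma2 (chr13:14613148-14613232, plus strand): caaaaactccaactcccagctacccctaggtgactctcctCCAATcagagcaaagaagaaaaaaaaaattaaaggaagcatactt
Psma6 (chr12:55384153-55384221, plus strand): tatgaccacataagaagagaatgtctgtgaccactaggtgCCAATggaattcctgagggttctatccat
Psmb3 (chr11:97703351-97703433, plus strand): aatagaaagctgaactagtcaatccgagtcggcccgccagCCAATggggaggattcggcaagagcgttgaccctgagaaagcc
Psmd10 (chrX:140956712-140956775, minus strand): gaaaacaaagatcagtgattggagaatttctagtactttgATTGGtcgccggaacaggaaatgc

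Psma2, Psma6, Psmb3 and Psmd10, picked by the size of their change, had changes of 0.26, 0.27, 0.19 and 0.31, each without overlap between the groups. Psmc2 and Psme3, with matches 28 and 14 bases before a start site, changed by 0.053 and 0.073. Psmb5, at 0.28, had no CCAAT in its window, and Psma1, which had it, changed by -0.017.

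Around the proteasome, genes listed for the steps before it were compared by the same fit, in which 4.93% of all probe sets were called higher and 4.17% lower. Of 11 measured ubiquitin shuttles and factors of the p97 segregase, Ufd1, an adaptor of p97, was called higher and none lower, with a median of 0.096. Ufd1 was at 9.52 and 9.44 in shCtrl and at 9.90 and 9.87 in shPW1, a log2 fold change of 0.40 (95% confidence interval 0.24 to 0.56, adjusted p = 0.0323 by limma). Vcp, which encodes p97 itself, changed by 0.034. Of the genes for ubiquitin and its activating enzymes, Uba6, the second activating enzyme, was the only one of 6 with a row of its own symbol. It was at 9.10 and 8.97 in shCtrl and at 9.50 and 9.54 in shPW1, a log2 fold change of 0.49 (adjusted p = 0.0285 by limma). None of 12 measured proteasome-associated proteins was called by limma, 2 were higher and none lower at an unadjusted p under 0.05, and Sem1, the small lid subunit outside the naming rule, changed by -0.14 with both shPW1 arrays below both shCtrl arrays (adjusted p = 0.241), and by -0.096 without shPW1 replicate 1.

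Of 9 measured genes that process Nfe2l1 or share its binding partners, 2 were called higher and none lower, with a median of 0.21. Maff, a small Maf protein, was at 6.74 and 6.78 in shCtrl and at 7.66 and 7.57 in shPW1, a log2 fold change of 0.86 (95% confidence interval 0.69 to 1.02, adjusted p = 0.00841 by limma). Nfe2l2, which encodes the oxidative stress factor Nrf2, was at 9.72 and 9.71 in shCtrl and at 10.02 and 10.03 in shPW1, a log2 fold change of 0.31 (95% confidence interval 0.16 to 0.46, adjusted p = 0.0418 by limma). Bach1, a repressor at the same elements, and the small Maf gene Mafg had changes of 0.29 and 0.24 without overlap and were not called (adjusted p = 0.0664 and 0.0788). Mafk, the third small Maf gene, changed by 0.21 without overlap. Of the 10 genes listed, 9 were measured, and Ddi2 was not among them. The measured genes that process the Nfe2l1 protein had values near or below 0. Ngly1, the glycanase that removes its sugars, was at 7.48 and 7.45 in shCtrl and at 7.22 and 7.34 in shPW1, a change of -0.19 (adjusted p = 0.166 by limma). Sel1l, of the export complex of the endoplasmic reticulum, changed by -0.098 with both shPW1 arrays lower, and Syvn1, its ligase partner, by -0.026 with overlap.

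Of 9 measured ubiquitin ligase genes known for MyoD or cyclin E, 3 were called higher and none lower, beside 4.93% and 4.17% of all probe sets, with a median of 0.098. Fbxo32, which encodes atrogin-1, was at 7.83 and 7.68 in shCtrl and at 8.46 and 8.63 in shPW1, a log2 fold change of 0.79 (95% confidence interval 0.55 to 1.03, adjusted p = 0.0192 by limma). Skp2 and its cofactor Cks1b, which mark cyclin-dependent kinase inhibitors for degradation, had log2 fold changes of 0.52 and 0.41 (adjusted p = 0.0221 and 0.0259). The changes of Fbxo32, Skp2 and Cks1b were all larger than that of any proteasome gene, as values on the log2 scale. The list did not move as a whole. Huwe1 and Fbxw7 overlapped at 0.010 and 0.15, and Cul3 lay lower without overlap, at -0.093. Of the 9 genes, 44.4% separated upwards and 11.1% downwards, beside 27.5% and 28.0% of all probe sets.

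Complexes that resemble the proteasome in build or use showed smaller medians. The COP9 signalosome, a relative of the cap's lid, had a median of 0.0070 over 10 genes, with Cops6 called lower (log2 fold change -0.40, adjusted p = 0.0295 by limma), and the CCT chaperonin had a median of 0.026 over 8 genes with none called. At an unadjusted p under 0.05, 3 signalosome genes were higher and 2 lower, and 2 chaperonin genes were higher and 2 lower. Among the signalosome genes not called, Cops4 changed by 0.28 and Cops7a by -0.26. The 9 measured genes of the immunoproteasome and peptide loading had a median of 0.0094 with none called by limma, and 2 higher and 1 lower at an unadjusted p under 0.05. Psmb10, Psme1 and Psme2 of this list are also counted among the proteasome genes above, so it is not a separate set. The differences between these lists were not tested. The calls of Uba6, Ufd1, Nfe2l2, Fbxo32, Skp2, Cks1b and Cops6 were lost with a test of every row and with the replicate block, and that of Maff with the former. All were also lost after adjustment of the analysis of variance (adjusted p = 0.0931 to 0.160), and that of Nfe2l2 when quantile normalized again (0.0505). Over the alternatives their adjusted p reached from 0.127 (Maff) to 0.229 (Nfe2l2) at most, while each change kept its sign.

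**Figure D4:**
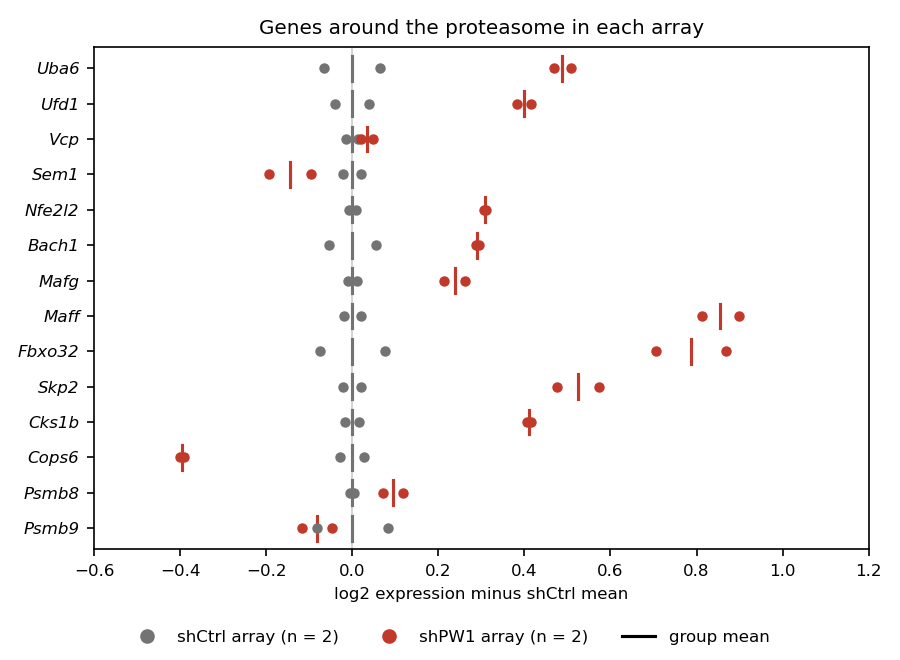
Log2 expression minus the mean of the shCtrl arrays (horizontal axis) for 14 genes around the proteasome (vertical axis), with 1 point per array (2 shCtrl in grey, 2 shPW1 in red) and a short line at each group mean. Maff (0.86), Fbxo32 (0.79), Skp2 (0.52) and Uba6 (0.49) lie furthest to the right and Cops6 (-0.40) to the left, while the arrays of the groups overlap for Psmb9.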

How the data were processed

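RNA of shCtrl and shPW1 AdmMABs (2 extractions each) was hybridised to Mouse Gene ST arrays of Affymetrix. The authors summarized them by RMA with Partek Genomics Suite (6.4 in the submitters' processing notes; the methods give another version), and the deposited log2 values cover 35556 probe sets. Background correction, normalization and summarization were therefore those of the authors. Of these rows, 21789 had exactly 1 gene symbol and were tested, 1621 had several and 12146 had none. Symbols were updated through RefSeq gene IDs for 21698 of them. The comparison used limma 3.58.1 (lmFit, eBayes) in R 4.3.3 (2 residual and 2.72 prior degrees of freedom), two-sided, with Benjamini-Hochberg adjustment over all probe sets tested. The fit was tested on simulated data. No filter on low values was used; 50 of the 52 members passed one at a mean of 5.44. No depth or detection call was available, and the number of arrays sets the precision.

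Members and gene lists were chosen with earlier results of these data known. Values per array are given for called members, the catalytic subunits, deubiquitinases, Nfe2l1, Psmg1, Pomp and Psmb10, and up to 3 called genes of each surrounding list; the other genes were named after their values were seen. Other settings tried were the removal of dim probe sets, a test of every row, repeated quantile normalization, centring on array medians, a robust prior with a trend, the methods' analysis of variance, a replicate block, the mean of a gene's probe sets, and leaving out each array.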

Additional observations from a re-analysis of the deposited data

How the results depend on the processing

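The direction of change of the proteasome genes rested on small differences, and the number called on the test. The count of proteasome genes called higher was 1 as reported. It was 12 with dim probe sets left out (core 4, cap 3, assembly 3), 6 with array medians subtracted (2, 1 and 2), 19 with a trended robust prior (8, 5 and 4, with 1 gene lower) and 2 by the methods' analysis of variance (1 of the core). It was 0 with all rows tested, with the replicate block, after adjustment of the analysis of variance, and in the range from 0 to 0 with 1 array left out. Over all probe sets, 1075 were higher and 908 lower as reported, 2240 and 1784 with dim probe sets left out, 36 and 50 with all rows tested, 1627 higher with array medians subtracted, 2735 and 1978 with the prior, 256 and 258 with the replicate block, 1 and 1 after adjustment of the analysis of variance, and 0 with any array left out. The cause was not tested, except that fewer residual degrees of freedom remain with a block or a missing array.

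Same-numbered arrays share only a number. Their deviations correlated at -0.11, so the crossed pairing was added after the data were seen, and it called 213 probe sets higher, 224 lower and 0 proteasome genes.

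The median change was 0.16 for the core, 0.15 for the cap, 0.20 for the assembly chaperones and 0.049 for all probe sets with array medians subtracted. When quantile normalized again, it was 0.046 for the cap. The median change of all probe sets was then -0.0011, and 0.0070 with dim ones left out. With 1 array left out it ran from 0.10 to 0.13 for the core, 0.065 to 0.10 for the cap, 0.12 to 0.18 for assembly and -0.012 to 0 for all probe sets. Peg3 stayed between -2.47 and -2.21 with 1 array left out, with an adjusted p of 0.0795 to 0.112, and at -2.34 (adjusted p = 0.105) after adjustment of the analysis of variance.

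Changes near 0 turned sign. With array medians subtracted, the values were 0.042 for Psma1, 0.049 for Psma8, 0.029 for Psmb6, 0.045 for Psmd11, 0.024 for Psmd8, 0.050 for Psmf1 and 0.047 for Psme3ip1. When quantile normalized again, they were 0.022 for Psma8, -0.0035 for Psmb1, -0.035 for Psmc3, -0.027 for Psmc4, -0.018 for Psmc5, -0.024 for Psmd13, -0.038 for Psme4, -0.0043 for Psmg2 and -0.037 for Psmd9. With 1 array left out, the ranges that crossed 0 were -0.16 to 0.0017 for Psmb9, -0.11 to 0.081 for Psma1, -0.21 to 0.19 for Psma8, -0.032 to 0.10 for Psmb1, -0.015 to 0.11 for Psmb10, -0.11 to 0.048 for Psmb6, -0.017 to 0.042 for Psmc3, -0.0090 to 0.032 for Psmc4, -0.0051 to 0.017 for Psmc5, -0.052 to 0.025 for Psmd11, -0.040 to 0.091 for Psmd13, -0.14 to 0.067 for Psmd8, -0.021 to 0.054 for Psme4, -0.046 to 0.030 for Psmf1, -0.029 to 0.25 for Psmg3, -0.036 to 0.049 for Psmd9, -0.0049 to 0.19 for Psmc3ip and -0.051 to 0.028 for Psme3ip1.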
